A study of Mus musculus with 6 samples.

Results

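Fatty acid uptake and binding proteins were followed in mouse brown adipocytes through 10 genes: Cd36, Lpl, Gpihbp1, Fabp3, Fabp4, Fabp5, Slc27a1, Slc27a2, Slc27a3 and Slc27a4. The members were chosen by name, as every probe set whose annotation gives 1 of these symbols and no other, which found 19 probe sets for 10 of the 18193 genes with a probe set of their own. The study measured RNA on 6 one-colour oligonucleotide arrays, 2 in each of 3 groups, and asked how brown fat cells differ when PGC-1 coactivators are missing. All cells were immortalised brown fat cells carrying the SV40 large T antigen, a viral protein that keeps cells dividing, and all were taken on day 7 of differentiation. The wild-type group, labelled WT, came from mice of mixed background per the label of 1 array, and had passage number 4. The knockout-control group was PGC-1alpha -/- and expressed a control siRNA. The knockdown group was PGC-1alpha -/- and expressed an siRNA against PGC-1beta. The knockout-control and knockdown groups thus share the PGC-1alpha deletion and an expressed siRNA, and no wild-type array with a control siRNA was analysed here. Genotype, cell line and siRNA expression therefore cannot be told apart in any comparison with wild type, and loss of PGC-1beta cannot be told apart from other effects of that siRNA in the knockdown step. The labels give no passage number for the 4 PGC-1alpha -/- arrays and do not say whether a line was 1 clone.

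Adipocytes take up fatty acids from blood lipoproteins in several steps. Lipoprotein lipase (LPL), secreted by the adipocyte, is held on the capillary wall by GPIHBP1, a protein of endothelial cells, and splits triglyceride there. CD36 and the transport proteins of the SLC27 family move fatty acids into the cell, and SLC27 proteins also join them to coenzyme A. The FABP proteins are small cytosolic carriers, among which FABP4 is the form typical of adipocytes. Brown fat burns these fatty acids to make heat through UCP1, and PGC-1alpha and PGC-1beta are coactivators that raise the transcription of mitochondrial and thermogenic genes, partly through nuclear receptors such as the PPARs.

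The letters AGGTCA form the half-site read by nuclear receptors of the PPAR and RXR kind. They were searched on both strands (on the other strand they read TGACCT) in the 250 bases before each start listed in RefSeq's promoter table, build GRCm38.p6. A listed start can lie inside the gene. The table held 6 of the 10 members (Cd36, Fabp3, Slc27a1, Slc27a2, Slc27a3 and Slc27a4) in 8 windows, since Slc27a1 has 3 starts there. The half-site letters stood in 2 of the 8 windows, against 14% of all 32851 windows. The 2 windows are shown because they are the member promoters that hold the letters, and the capitals mark them. The Cd36 window is chr5:17835897-17836146 on the minus strand, with the letters 228 to 223 bases before the listed start. This window lies inside the span of Cd36 (chr5:17781690-17888959), so it precedes an inner start and not the outer end of the gene. The Slc27a3 window and all or part of each Slc27a1 window also lie within the span of their gene. The Slc27a2 window is chr2:126552774-126553023 on the plus strand, with the letters 220 to 215 bases before the start.
Cd36: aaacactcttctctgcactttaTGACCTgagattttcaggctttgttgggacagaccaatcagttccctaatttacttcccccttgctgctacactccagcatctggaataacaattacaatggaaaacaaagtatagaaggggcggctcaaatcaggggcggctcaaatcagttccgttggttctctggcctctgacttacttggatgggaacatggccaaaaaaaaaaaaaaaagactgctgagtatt
Slc27a2: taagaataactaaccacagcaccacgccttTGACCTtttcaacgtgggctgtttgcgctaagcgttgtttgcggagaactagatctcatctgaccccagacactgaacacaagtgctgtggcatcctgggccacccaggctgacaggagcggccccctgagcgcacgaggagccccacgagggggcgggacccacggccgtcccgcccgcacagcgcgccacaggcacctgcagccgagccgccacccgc
A direct repeat of the half-site with 1 base between the copies, the form bound by the PPAR and RXR pair, stood in 0 of the 8 member windows and 0.0335% of all. The letters TNAAGGTCA, read by estrogen-related receptors, stood in 0 of the 8 windows and 1.14% of all. A match or its lack describes only the letters in these windows.

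The deposited values are intensities on a linear scale, and array medians lay between 220.9 and 242.7. The checks of the labels are given by the brightest probe set of each gene. Ppargc1b, which encodes PGC-1beta, read 2850 and 3162 in wild type, 1862 and 2302 in knockout-control and 534 and 224 in knockdown, a 5.53-fold fall from knockout-control to knockdown (limma, adjusted p = 0.022). Ppargc1a differed from wild type by -0.71 on the log2 scale in the knockout-control group, which missed the threshold (limma, adjusted p = 0.125), and whether its probes lie in the deleted part was not tested. Of the marker lists, the 4 measured adipocyte genes had 0 called in every comparison, and their summed intensity lay between 26052 and 26547 in wild type, 26049 and 27660 in knockout-control and 23710 and 26096 in knockdown. Of 6 brown adipocyte markers, 1 was called lower in the knockout-control group against wild type and 4 were called lower in the knockdown group against knockout-control, with 6 of 6 lower in knockdown against wild type. Their summed intensity was 22619.6 and 22491 in wild type, 18458 and 18147 in knockout-control and 7819 and 6272 in knockdown. Preadipocyte and fibroblast markers, 6 measured of 7 listed, summed to 5330 and 6192 in wild type, 3870 and 4607 in knockout-control and 6233 and 7620 in knockdown, with 1 called lower in the knockout-control group against wild type 1 called higher in the knockdown step, and 2 higher and 1 lower in knockdown against wild type. Macrophage markers (5 of 8 over the filter on dim genes) summed to between 3227 and 4028 over the 6 arrays and muscle markers (3 of 8 over it, 5 of 8 with a value on every array and summed) to between 1162 and 1405, with 0 called in either list in any comparison. The part of these cells in the results below was not tested. The arrays measure bulk RNA, so fewer cells of a type and less RNA per cell cannot be told apart.

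None of the 10 uptake and binding genes passed the test in any of the 3 comparisons, while Ucp1, the gene of heat production, fell 24.9-fold in the knockdown step. Differences were fitted with limma on log2(intensity + 32), each gene by its brightest probe set, and called at a p adjusted by Benjamini-Hochberg over all genes tested under 0.05. In the comparison of knockout-control with wild type 0 of 10 members were called, against 6.05% of all genes. Between knockdown and knockout-control 0 of 10 were called, against 0.835%. Between knockdown and wild type 0 of 10 were called, against 10% of all genes. At each of these shares 10 genes would hold few calls or none, so the counts of 0 do not set the members apart from all genes. The lowest adjusted p of a member was 0.235, 0.540 and 0.178 in these comparisons. At an unadjusted p under 0.05 the count was 1, 0 and 2 of the 10 members. Over all genes tested it was 2885 of 13652, 1930 of 13649 and 3478 of 13644.

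By their brightest probe sets, the differences of the members were also small in size. The median member difference on the log2 scale was 0.0020, -0.0100 and -0.043 in the same order, beside 0.00023, -0.0073 and -0.027 over all genes tested. Regardless of sign, the median size was 0.097, 0.052 and 0.11, beside 0.19, 0.16 and 0.22 over all genes. The genes of this background were not matched to the members in intensity, and some members lie near the top of the range or near the filter. The 95% intervals of the brightest probe sets, which bound a change in signal and not in RNA, lay within a 2-fold change either way for 10 of 10 members in the comparisons of knockout-control with wild type and of knockdown with knockout-control. Between knockdown and wild type 9 of 10 did, the exception being Slc27a3. The interval of the dimmest Cd36 probe set also reached beyond 2-fold in that comparison. In knockout-control minus wild type, the interval of the dimmer Slc27a1 probe set reached -1.02 on the log2 scale. That of the Fabp3 probe set under the filter on dim values reached -1.09 there, in a fit without the filter. These intervals rest on 3 residual degrees of freedom, and the comparisons share arrays, so their values are set side by side and no overlap is read from them.

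**Figure D1:**
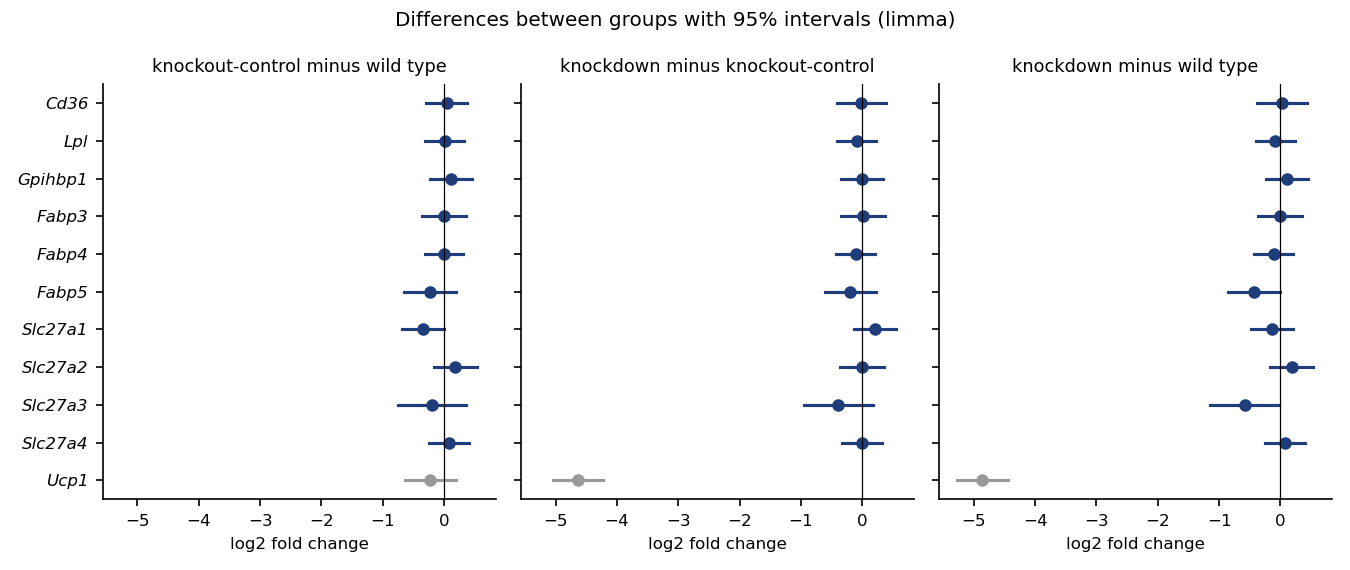
Difference of each uptake and binding gene, by its brightest probe set, between groups on the log2 scale (x axis). Bars give the 95% interval from limma, in the 3 comparisons. The 10 member genes sit near 0, the furthest at -0.58 (Slc27a3, knockdown minus wild type), whereas Ucp1, drawn in grey for scale, sits at -4.64 and -4.86 in the comparisons with the knockdown group.

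Taken by probe set, 18 of the 19 passed the filter on dim values. The other was a Fabp3 probe set whose wild-type arrays, at 204.6 and 217.7, lay over the filter level of 163.6. Between knockout-control and wild type 0 of 18 were called, against 6.32% of all probe sets. Between knockdown and knockout-control 0 of 18 were called, against 0.625%. Between knockdown and wild type 1 of 18 was called, against 9.93%, and this was a dim probe set of Cd36. The arrays of knockout-control and wild type did not overlap for 7 of 18 member probe sets, all 7 lower in knockout-control, against 58.3% of all probe sets. The arrays of knockdown and knockout-control did not overlap for 4 of 17, with 2 lower and 2 higher, against 37.4%. The arrays of knockdown and wild type did not overlap for 15 of 17, with 12 lower and 3 higher in knockdown, against 54.6%. These shares over all probe sets do not split by direction, so the splits of the members have no background beside them. Array medians were 234.4 and 220.9 in knockdown and 236.7 and 237.7 in wild type. The 17 leave out the Cd36 probe set with an empty cell. Probe sets of 1 gene are not replicates of each other.

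**Figure D2:**
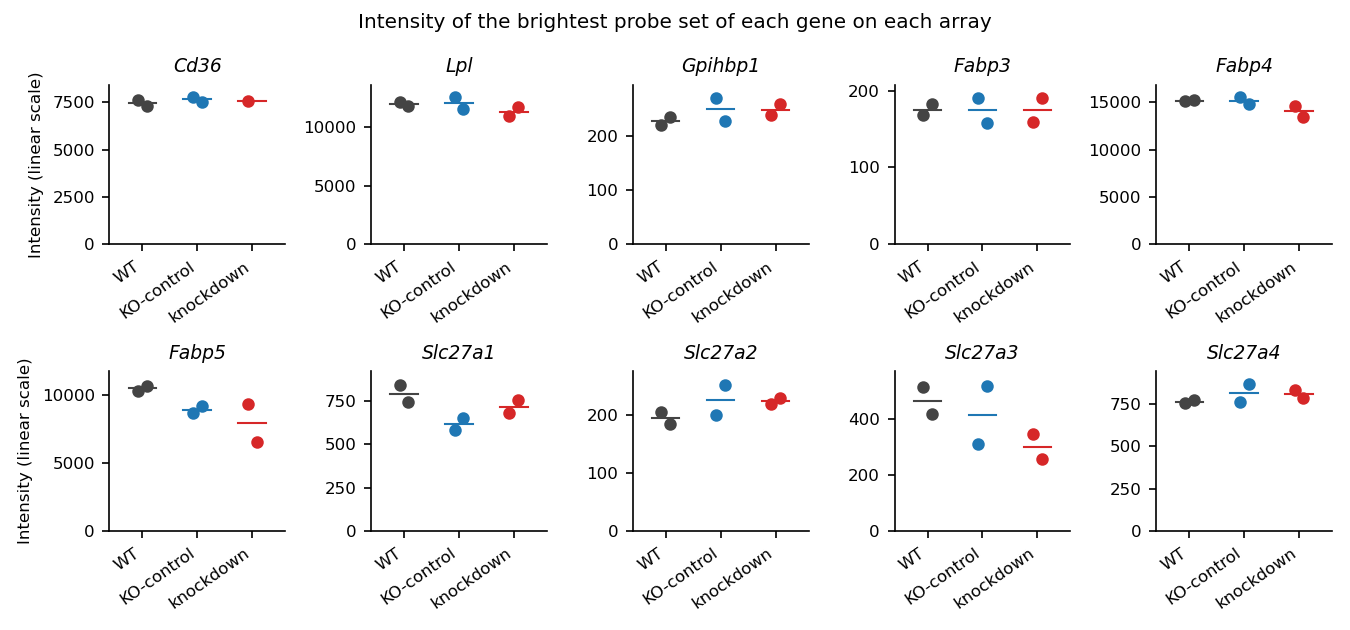
Intensity (y axis, linear scale from 0) of the brightest probe set of each uptake and binding gene on each of the 6 arrays, with a line at the group mean. Fabp4, Lpl and Cd36 sit at a similar height in the 3 groups, Fabp5 has 1 knockdown array at 6515 below the others, and the Cd36 cell of knockdown array 2 is empty in the deposited values.

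Lpl (chr8:68880555-68906932, GRCm38.p6), the lipase itself, differed little among the 3 kinds of cells. Its brightest probe set, 1415904_at, read 12130 and 11849 in wild type, 12567 and 11547 in knockout-control and 10943 and 11712 in knockdown. The knockout-control arrays spanned those of wild type, and both knockdown arrays lay below both wild-type arrays. The difference was 0.0069 ± 0.14 (SE) on the log2 scale for knockout-control minus wild type, with an interval from -0.31 to 0.33 (limma, adjusted p = 0.986). It was -0.089 for the knockdown step (interval -0.41 to 0.23, limma adjusted p = 0.832) and -0.083 for knockdown minus wild type (interval -0.40 to 0.24, limma adjusted p = 0.759).

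The second Lpl probe set, 1431056_a_at, read 9564 and 9281 in wild type, 9953 and 9497 in knockout-control and 8605 and 8445 in knockdown. The knockdown arrays were the lowest of the 6, by -0.19 on the log2 scale against knockout-control (limma, adjusted p = 0.646), which did not pass. Its intensity was 72.1% to 82.2% of that of the first probe set across the arrays, and it was the lowest on knockdown array 2. The intensity of the first lay at 74.8% to 83.6% of the highest on its array, and how far a probe set at that level still responds to more RNA was not tested.

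Gpihbp1 (chr15:75596630-75598213), whose protein carries LPL across the capillary wall, gave low intensities of 220.3 and 233.4 in wild type, 269.6 and 226.4 in knockout-control and 237.0 and 257.2 in knockdown. The groups lay close together, with knockout-control overlapping both other groups and knockdown slightly above wild type. The difference was 0.11 ± 0.15 (SE) for knockout-control minus wild type (interval -0.23 to 0.45, limma adjusted p = 0.742), -0.0015 for the knockdown step (interval -0.34 to 0.34, adjusted p = 0.998) and 0.11 for knockdown minus wild type (adjusted p = 0.698). Gpihbp1 is known as an endothelial gene. Of the 6 endothelial markers 4 (Cdh5, Emcn, Pecam1 and Tie1) lay under the filter on dim genes, none of the other 2 was called, and the summed intensity of the 5 markers with a value on every array lay between 730.0 and 853.1 over the 6 arrays.

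Cd36 (chr5:17781690-17888959), the scavenger receptor that binds long-chain fatty acids at the cell surface, was measured by 3 probe sets, and they did not move together. The brightest, 1450883_a_at, read 7631 and 7292 in wild type, 7791 and 7544 in knockout-control and 7588 on knockdown array 1, with the cell of array 2 empty. The arrays of the 3 groups overlapped. The fit drops the empty array, so knockdown rests on 1 array here, assumed to vary like the others, and gave 0.04 ± 0.14 (SE) for knockout-control minus wild type (interval -0.29 to 0.37, limma adjusted p = 0.922), -0.015 ± 0.18 for the knockdown step (interval -0.42 to 0.39, adjusted p = 0.981) and 0.024 ± 0.18 for knockdown minus wild type (adjusted p = 0.947).

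The second probe set, 1423166_at, has a value on all 6 arrays. It read 5474 and 5281 in wild type, 5153 and 5322 in knockout-control and 5231 and 4812 in knockdown. The knockdown arrays lay just under the wild-type arrays, by -0.099 on the log2 scale (limma, adjusted p = 0.725), and the direction is thus opposite to that of the brightest probe set, with neither called.

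The dimmest Cd36 probe set, 1450884_at, was lower in all 4 PGC-1alpha -/- arrays than in both wild-type arrays. It read 1333 and 1310.5 in wild type, 816.6 and 970.9 in knockout-control and 912.7 and 719.6 in knockdown. The 4 arrays stood at 54.4% to 73.5% of the wild-type mean, and the knockout-control and knockdown arrays overlapped. In the fit over all probe sets it differed by -0.68 ± 0.17 (SE) for knockdown minus wild type (interval -1.08 to -0.29), the single call among the members (limma, adjusted p = 0.0404). That call was lost when wild-type array 1 or 2 or knockdown array 2 was left out, and it held without knockdown array 1 (-0.85). It was also lost without knockout-control array 1 or 2, with the difference unchanged at -0.68. Those arrays are not in this comparison and enter the fit only through the shared estimate of the spread. The difference for knockout-control minus wild type was -0.55 ± 0.17 and did not pass (limma, adjusted p = 0.102), and that of the knockdown step was -0.13 (adjusted p = 0.814).

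Set against 1423166_at on the same array, the dim probe set gave 24.4% and 24.8% of its intensity in wild type, 15.8% and 18.2% in knockout-control and 17.4% and 14.95% in knockdown. The ratio of the 2 brighter probe sets moved less, from 71.7% and 72.4% in wild type to 66.1% and 70.6% in knockout-control and 68.9% on knockdown array 1. Unequal change within 1 gene was therefore measured on each PGC-1alpha -/- array. Which transcripts each probe set reads was not analysed here.

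**Figure D3:**
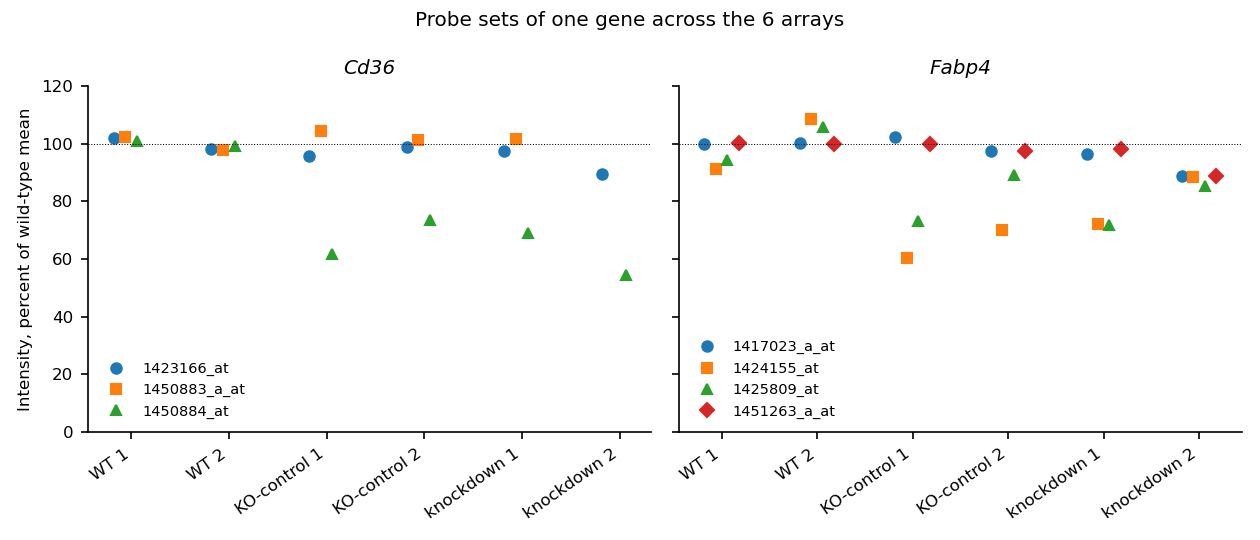
Intensity of each probe set of Cd36 (left) and Fabp4 (right) on each array, in percent of that probe set's wild-type mean (y axis, from 0; the dotted line is 100%). The Cd36 probe set 1450884_at stands at 54.4% to 73.5% on the 4 PGC-1alpha -/- arrays while the other Cd36 probe sets stay near 100%, and the dimmer Fabp4 probe sets 1424155_at and 1425809_at lie lower on the knockout-control arrays than the bright ones.

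Of the cytosolic carriers, Fabp4 (chr3:10204342-10208616), the adipocyte form and a common marker of differentiated fat cells, gave intensities close to the top of the scale. Its brightest probe set, 1417023_a_at, read 15152 and 15220.0 in wild type, 15531 and 14787 in knockout-control and 14629 and 13496 in knockdown, which is 96.3% to 100% of the highest intensity on the array. The knockdown arrays were the lowest of the 6. The difference was -0.0030 ± 0.14 (SE) for knockout-control minus wild type (interval -0.32 to 0.31, limma adjusted p = 0.994), -0.11 for the knockdown step (interval -0.42 to 0.21, adjusted p = 0.784) and -0.11 for knockdown minus wild type (interval -0.43 to 0.20, adjusted p = 0.662). A probe set at the top of the range can understate a change in RNA, and whether it did so here was not tested.

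The other Fabp4 probe sets divide into a bright and a dim kind. The bright 1451263_a_at, at 83.3% to 88.3% of the array's highest intensity, read 13185 and 13116 in wild type, 13126 and 12822 in knockout-control and 12922 and 11673 in knockdown, with knockdown array 2 the lowest. The dim 1424155_at read 681.3 and 811.4 in wild type, 449.7 and 523.9 in knockout-control and 538.6 and 659.9 in knockdown. Its arrays stepped without overlap from wild type down to knockout-control and up part of the way in knockdown, by -0.58 ± 0.17 (SE) for knockout-control minus wild type (limma, adjusted p = 0.0895) and 0.28 for the knockdown step (adjusted p = 0.562), neither of them past the threshold.

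The other dim set, 1425809_at, read 523.6 and 586.0 in wild type, 405.5 and 494.5 in knockout-control and 398.2 and 473.4 in knockdown. All 4 PGC-1alpha -/- arrays lay under both wild-type arrays, by -0.29 in knockout-control (limma, adjusted p = 0.388) and -0.33 in knockdown (adjusted p = 0.268). The bright Fabp4 probe sets overlapped between wild type and knockout-control and the dim ones did not, and no Fabp4 probe set was called.

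Fabp5 (chr3:10012585-10016610), the carrier also known from skin, lies 187.7 kb from Fabp4 on the same chromosome. Its brightest probe set, 1416021_a_at, read 10290.5 and 10664.5 in wild type, 8635 and 9184 in knockout-control and 9313 and 6515 in knockdown. All 4 PGC-1alpha -/- arrays lay below both wild-type arrays, and the knockdown arrays were far apart. The difference was -0.23 ± 0.18 (SE) for knockout-control minus wild type (interval -0.66 to 0.19, limma adjusted p = 0.535), -0.19 for the knockdown step (interval -0.61 to 0.23, adjusted p = 0.709) and -0.43 for knockdown minus wild type (interval -0.85 to -0.0037, adjusted p = 0.192). Without knockdown array 1 the last value was -0.68 and passed (limma, adjusted p = 0.0189), and without knockdown array 2 it was -0.17.

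The second Fabp5 probe set, 1416022_at, read 10210.5 and 10420.2 in wild type, 7655 and 8040.0 in knockout-control and 8451 and 6159 in knockdown. The same order of arrays appeared as in the first probe set. It differed by -0.39 for knockout-control minus wild type (limma, adjusted p = 0.259) and by -0.51 for knockdown minus wild type (adjusted p = 0.113). Its intensity was 99.2% and 97.7% of that of the first probe set in wild type, 88.6% and 87.5% in knockout-control and 90.7% and 94.5% in knockdown. These ratios did not overlap between any 2 groups, which is a description with no test.

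Fabp3 (chr4:130308738-130315463), the carrier of heart and muscle that brown fat also makes, was dim. Its probe set 1444844_at read 167.6 and 182.2 in wild type, 190.8 and 157.6 in knockout-control and 158.8 and 190.8 in knockdown, near the filter on dim genes at 163.6. The groups overlapped throughout, and the difference was -0.0088 ± 0.16 (SE) for knockout-control minus wild type (interval -0.37 to 0.35, limma adjusted p = 0.985). The other probe set, 1416023_at, lay under the filter, at 204.6 and 217.7 in wild type, 115.5 and 136.7 in knockout-control and 184.6 and 132.0 in knockdown. All 4 PGC-1alpha -/- arrays were lower than wild type there, by -0.62 in knockout-control and -0.37 in knockdown in a fit without the filter, and neither passed (limma, adjusted p = 0.189 and 0.395). In wild type 1416023_at was the brighter probe set, with a mean of 211.1 against 174.9, and lay over 163.6 on both arrays. Its lower values in the PGC-1alpha -/- arrays thus put it under the filter and left 1444844_at to stand for the gene. The choice of probe set was therefore not independent of the groups, and the small Fabp3 differences hold for 1444844_at alone.

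Among the transport proteins, Slc27a1 (chr8:71568728-71587307) encodes FATP1 of muscle and fat. Among the brightest probe sets of the members, that of Slc27a1 had the lowest adjusted p in knockout-control minus wild type. In the fit by probe set, dim probe sets of Fabp4 and Cd36 had lower values there (limma, adjusted p = 0.0895 and 0.102), with neither called. The brightest Slc27a1 probe set, 1422811_at, read 840.4 and 742.5 in wild type, 581.3 and 651.8 in knockout-control and 677.8 and 756.0 in knockdown. Knockout-control lay below the other groups with no overlap, and knockdown overlapped wild type. The difference was -0.34 ± 0.15 (SE) for knockout-control minus wild type (interval -0.69 to -0.0015, limma adjusted p = 0.235), 0.21 for the knockdown step (interval -0.13 to 0.55, adjusted p = 0.600) and -0.14 for knockdown minus wild type (interval -0.48 to 0.21, adjusted p = 0.622).

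The dimmer Slc27a1 probe set, 1435658_at, read 214.8 and 200.3 in wild type, 100.9 and 162.9 in knockout-control and 156.0 and 174.5 in knockdown. All 4 PGC-1alpha -/- arrays were below wild type. It differed by -0.57 ± 0.20 (SE) for knockout-control minus wild type, which did not pass (limma, adjusted p = 0.136), by 0.29 in the knockdown step (adjusted p = 0.595) and by -0.28 for knockdown minus wild type (adjusted p = 0.426). Both probe sets of Slc27a1 thus had the same order of group means, wild type above knockdown above knockout-control.

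Slc27a3 (chr3:90385230-90390835), which encodes an acyl-CoA synthetase of the family (FATP3), had the widest spread. It read 514.5 and 417.1 in wild type, 309.7 and 516.1 in knockout-control and 347.3 and 256.0 in knockdown. The knockout-control arrays spanned those of wild type and overlapped knockdown, and knockdown lay below wild type without overlap. The difference was -0.20 ± 0.24 (SE) for knockout-control minus wild type (interval -0.75 to 0.36, limma adjusted p = 0.722), -0.39 for the knockdown step (interval -0.95 to 0.17, adjusted p = 0.540) and -0.58 for knockdown minus wild type (interval -1.14 to -0.027, adjusted p = 0.178). The last was the furthest from 0 among the brightest probe sets of the members. The dimmest Cd36 probe set lay further from 0 in that comparison, at -0.68.

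Slc27a4 (chr2:29802634-29817522), which encodes FATP4, read 754.1 and 773.2 in wild type, 758.4 and 868.4 in knockout-control and 830.0 and 787.6 in knockdown. Knockdown lay slightly above wild type and within the span of knockout-control, and the differences from wild type were 0.085 (limma, adjusted p = 0.803) and 0.079 (adjusted p = 0.776). Slc27a2 (chr2:126553024-126588243), which encodes FATP2, known mainly from liver and kidney, read 204.0 and 183.0 in wild type, 199.6 and 251.2 in knockout-control and 217.8 and 229.3 in knockdown. Its differences from wild type were 0.19 (limma, adjusted p = 0.566) and 0.18 (adjusted p = 0.516), and its knockout-control arrays overlapped both other groups.

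Of the genes that work beside the members in the same pathway, some passed and most did not. A list of 65 such genes in 6 roles, chosen with earlier results known, was followed, and 50 were tested. Between knockout-control and wild type 13 of the 50 were called (26%), 8 higher and 5 lower, beside the 6.05% of all genes. Between knockdown and knockout-control 1 was called (2%), higher, beside 0.835% of all genes. Between knockdown and wild type 10 were called (20%), 7 higher and 3 lower, beside 10% of all genes. Thus 37, 49 and 40 of the 50 did not pass. The medians over the 50 were -0.027, -0.048 and -0.027, beside 0.00023, -0.0073 and -0.027 over all genes. The counts depend on single arrays, as do those over all genes. The first was 4 (8%) when wild-type array 1, wild-type array 2 or the first of the knockout-control arrays was left out, and 6 (12%) when the second of them was, beside 1.75%, 1.72%, 1.7% and 2.5% of all genes in the same fits. The count for knockdown minus wild type was 4 (8%) and 3 (6%) without wild-type array 1 and 2, beside 2.62% and 2.4% of all genes. With no filter on dim genes 5 of 59 were called in either comparison with wild type (8.47%), beside 2.01% and 3.23% of all genes. These were Apoc3, Got2 and Rbp4 in each, with Apoc1 and Rbp7 in knockout-control and Acsl5 and Rxra in knockdown, and Apoe in the knockdown step did not pass (limma, adjusted p = 0.147). When probe sets of a gene were averaged instead of taking the brightest, the knockout-control calls of Angptl8, Scarb1, Got2, Acsl3, Pmp2 and Rxra, the knockdown calls of Acsl3 and Rxra against wild type, and that of Apoe were lost. The differences of Angptl8, Pmp2 and Apoe stayed at 0.93, 0.72 and 1.02 there. For these genes only the adjusted p moved, and no other probe set entered the mean.

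Among the lipase regulators, partners and related lipases, 3 of 16 were called higher in knockout-control and 3 in knockdown, in each case Apoc3, Apoc1 and Angptl8, and the 2 comparisons share the wild-type arrays. Apoc3, an apolipoprotein known to slow LPL, read 381 and 408 in wild type, 1955 and 1842 in knockout-control and 2000 and 1541 in knockdown. The 4 PGC-1alpha -/- arrays lay well above wild type, 4.52-fold in knockout-control and 4.19-fold in knockdown (limma, adjusted p = 0.000349 and 0.000316), and both calls held with any 1 array left out. Apoc1, another apolipoprotein that slows LPL, read 3301 and 3048 in wild type, 6784 and 5848 in knockout-control and 5248 and 4867 in knockdown, up 1.98-fold and 1.59-fold (limma, adjusted p = 0.0078 and 0.0278). Angptl8, a protein that blocks LPL together with a relative, rose from 166.8 and 199.3 to 323.8 and 437.9 in knockout-control and 513.6 and 356.0 in knockdown, by 1.91-fold and 2.15-fold (limma, adjusted p = 0.0393 and 0.0157). The calls of Apoc1 and Angptl8 were lost without wild-type array 1 or 2 in both comparisons, and without knockout-control array 1 in the first. In the first, that of Angptl8 was also lost without knockout-control array 2.

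Of the lipoprotein receptors and apolipoprotein E, 1 of 6 was called in knockout-control against wild type, and 1 in the knockdown step. Scarb1, the high-density lipoprotein receptor and a relative of CD36, read 4083 and 4227 in wild type, 2484 and 2814 in knockout-control and 4008 and 3406 in knockdown. Knockout-control was the lowest, by 1.56-fold against wild type (limma, adjusted p = 0.0446), a call lost without any 1 of the 4 arrays compared. The other Scarb1 probe sets differed by -0.57 and -0.67 in that comparison, with neither called (limma, adjusted p = 0.158 and 0.144). In knockdown minus wild type they differed by -0.27 and -0.57, beside -0.17 for the brightest, and none of these passed. Apoe, the ligand that clears lipoproteins, read 1594 and 1524 in wild type, 1048 and 1177 in knockout-control and 2553 and 2055 in knockdown. It rose 2.03-fold from knockout-control to knockdown (limma, adjusted p = 0.037), the single pathway gene called in that step. Leaving out either knockout-control array lost the call. The Apoe call was also lost without either wild-type array, with the difference unchanged. Wild-type arrays are not in this comparison and enter the fit only through the shared estimate of the spread.

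Of the membrane partners of fatty acid uptake, 2 of 8 were called lower in knockout-control and 1 of 8 in knockdown, both against wild type. Got2, a mitochondrial aminotransferase that also binds fatty acids at the cell surface, read 3779 and 4211 in wild type, 1343 and 1565 in knockout-control and 1866 and 1739 in knockdown. It fell 2.71-fold in knockout-control and 2.19-fold in knockdown (limma, adjusted p = 0.00132 and 0.00377), with both calls kept when any 1 array was left out. With the mean of its probe sets the difference in knockout-control was -0.61 and did not pass (limma, adjusted p = 0.0608). A second Got2 probe set differed by -1.14 in knockout-control (limma, adjusted p = 0.00773) and the third by -0.03. Fyn, a kinase that binds CD36, read 347 and 306 in wild type and 133 and 190 in knockout-control, a difference of -0.91 on the log2 scale (limma, adjusted p = 0.0228) with the knockout-control mean under the filter level, but its second probe set differed by -0.36 (adjusted p = 0.272), and it was no longer called once wild-type array 1, wild-type array 2 or knockout-control array 1 was left out.

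Acyl-CoA synthetases and acyl-CoA binding genes moved in both directions, with 2 of 10 higher and 1 lower in knockout-control and 1 higher and 1 lower in knockdown, against wild type. Acsl3, a synthetase of lipid droplets, was lower by 2.12-fold in knockout-control and by 1.87-fold in knockdown (limma, adjusted p = 0.0223 and 0.0315). Acsl5, another long-chain synthetase, read 1790.3 and 1755 in wild type, 3232 and 2977 in knockout-control and 3551 and 3071 in knockdown, up 1.74-fold and 1.85-fold (limma, adjusted p = 0.018 and 0.00896). Acot1, an enzyme that splits acyl-CoA, read 136.3 and 127.0 in wild type and 320.0 and 381.3 in knockout-control, a difference of 1.22 on the log2(intensity + 32) scale (limma, adjusted p = 0.0141). Its wild-type arrays lay under the filter level of 163.6, so it passed that filter through the other groups, and with no filter it was not called (limma, adjusted p = 0.0588). Its close relative Acot2 may share signal with it. All of these calls were lost without wild-type array 1 or 2. In the first comparison they were lost without knockout-control array 1 as well, those of Acsl5 and Acot1 also without knockout-control array 2, and in the second that of Acsl3 was lost without knockdown array 2.

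Other lipid binding proteins were called in 3 of 5 genes in knockout-control and 2 of 5 in knockdown, against wild type. Rbp4, the secreted carrier of retinol, read 11542 and 11862 in wild type, 3176 and 4258 in knockout-control and 4837 and 3554 in knockdown. It fell 3.16-fold in knockout-control and 2.81-fold in knockdown (limma, adjusted p = 0.0026 and 0.00387), and both calls held with any 1 array left out. Rbp7, a retinol binding protein of the FABP family, read 89.7 and 100.1 in wild type, 280.0 and 355.2 in knockout-control and 308.1 and 179.8 in knockdown. Its wild-type arrays also lay under the filter level, and the differences of 1.46 and 1.082 on the log2(intensity + 32) scale passed (limma, adjusted p = 0.0093 and 0.0228), the first lost without knockout-control array 2 and the second without wild-type array 1 or 2 or with no filter. Pmp2, the myelin form of the FABP family, rose 1.65-fold in knockout-control (limma, adjusted p = 0.0351), a call lost without any 1 of the 4 arrays compared.

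Of 5 receptors that bind fatty acids or sterols at genes of uptake, 1 was called higher in knockout-control and 2 in knockdown, against wild type. Rxra, the partner of the PPARs, read 537 and 519 in wild type, 939.8 and 998 in knockout-control and 1451 and 1026 in knockdown, up 1.79-fold and 2.24-fold (limma, adjusted p = 0.0326 and 0.00689). Its other probe sets differed from wild type by 0.39 and -0.01 in knockout-control and by 0.60 and -0.24 in knockdown, and none of these passed. The Rxra calls were lost without any 1 of the 4 arrays compared in the first case and without wild-type array 2 in the second. Nr1h3, the sterol receptor LXR alpha, rose 1.62-fold in knockdown (limma, adjusted p = 0.0208), a call lost without wild-type array 1 or 2. Pparg, the main receptor of fat cell differentiation, differed by 0.36, -0.22 and 0.15 in the 3 comparisons and did not pass.

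**Figure D4:**
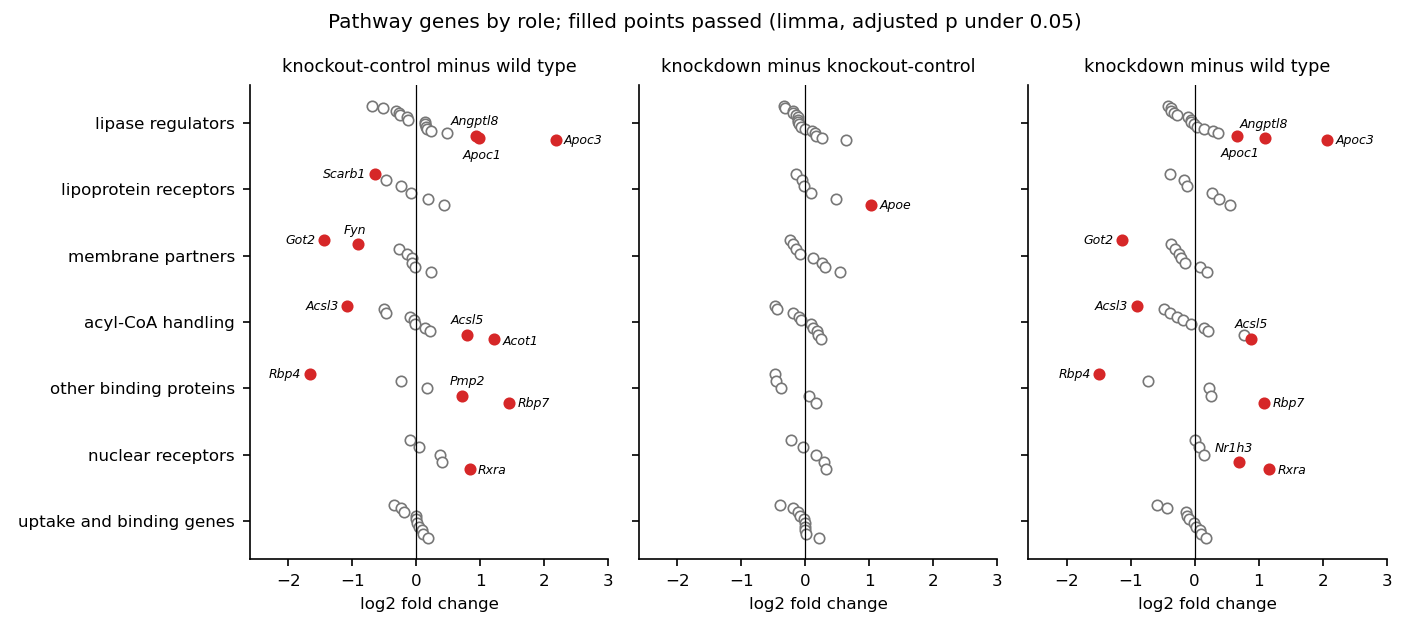
Differences between groups on the log2 scale (x axis) of the 50 tested pathway genes by role, with the 10 uptake and binding genes in the bottom line. Filled points passed (limma, adjusted p under 0.05), and they number 13, 1 and 10 from left to right, with Apoc3 furthest right at 2.18 and Rbp4 furthest left at -1.66, whereas all 10 uptake and binding genes are open points.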

How the data were processed

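RNA of 6 cultures was measured on 1 array each, with replicates called biological in the series design. The deposited table of the authors holds linear intensity values for 45037 probe sets. Which software summarised, scaled or background-corrected them is "not given in the sources used here", and detection calls were not used. Groups came from the sample titles. Names came from the platform annotation of 2016, updated in a gene table of GRCm38. Of the probe sets 34945 had 1 symbol (34741 matched), 932 had several and 9160 had none. Empty or null cells were kept as missing.

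The test was limma 3.58.1 (R 4.3.3) on log2(intensity + 32), with group means, all 6 arrays and eBayes (3 residual and 5.45 prior degrees of freedom), adjusted by Benjamini-Hochberg over all features tested. Each gene was represented by its brightest probe set, and genes with a mean under the 40th percentile (log2 value 7.61, intensity 163.6) were dropped, leaving 13658. A fit by probe set covered 22731. Fold changes are on the log2(intensity + 32) scale and understate changes of dim genes. Precision is limited by having 2 arrays in a group, with which an exact permutation test cannot reach p = 0.05. The procedure was tested on simulated data.

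Named were all members, the called pathway genes with the largest change (up to 4 per role and comparison), the coactivators, Ucp1 and the adipocyte genes Adipoq, Cebpa and Pparg, none of which 3 passed. Plin1 had no probe set of its own. Genes most like a called member were to be named, and no member gene was called. The members and lists were chosen with earlier results of these data known. Alternatives covered the pseudocount, the filter, averaging the probe sets of a gene, scaling, the variance model, the arrays fitted, the replicate block and each array left out.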

Additional observations from a re-analysis of the deposited data

How the results depend on the processing

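No alternative called a member gene in any comparison, except Fabp5 in knockdown minus wild type without knockdown array 1, so the count of member genes was 0 to 1 there with an array left out. Of 472 alternative values for member genes 432 kept direction and side of the threshold, 39 changed sign with none called, and 1 was Fabp5. Cd36 in knockout-control minus wild type became -0.18 with the mean of its probe sets and -0.038 with 1423166_at, an alternative chosen after seeing the data. In knockdown minus wild type Cd36 became -0.59 with the mean, since knockdown array 2 then holds the mean of the dimmer probe sets alone, -0.0035 with the replicate block and -0.099 with 1423166_at. Quantile normalization and equal array medians moved these knockdown-step values above 0: Cd36 to 0.073 and 0.021, Gpihbp1 to 0.071 and 0.072, Slc27a2 to 0.085 and 0.070, Slc27a4 to 0.049 and 0.068. They moved Fabp3 in knockdown minus wild type to 0.053 and 0.048. Equal medians moved Lpl in knockout-control minus wild type to -0.014, and the mean of probe sets moved Fabp4 in the knockdown step to 0.013.

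With each array left out, the knockout-control minus wild type values ranged from -0.054 to 0.068 for Lpl, -0.0020 to 0.22 for Gpihbp1, -0.13 to 0.11 for Fabp3, -0.038 to 0.032 for Fabp4, -0.54 to 0.15 for Slc27a3 and -0.0094 to 0.18 for Slc27a4. The knockdown-step values ranged from -0.038 to 0.0084 for Cd36, -0.11 to 0.11 for Gpihbp1, -0.11 to 0.12 for Fabp3, -0.45 to 0.064 for Fabp5, -0.15 to 0.14 for Slc27a2 and -0.099 to 0.089 for Slc27a4. In knockdown minus wild type they ranged from -0.0082 to 0.057 for Cd36 and -0.12 to 0.11 for Fabp3.

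Member probe sets called in knockout-control minus wild type numbered 1 with quantile normalization (Cd36 1450884_at), 2 with the 2 groups alone (that one and Fabp4 1424155_at) and 0 to 2 with an array left out. In knockdown minus wild type they numbered 0 with a pseudocount of 1, with no filter and with the 2 groups alone, 2 with a trended robust spread (Cd36 1450884_at and Fabp5 1416022_at) and 0 to 3 with an array left out. Pathway genes called in knockout-control minus wild type numbered 5 with no filter, 7 with the mean of probe sets and 4 to 17 with an array left out. In the knockdown step they numbered 0 with no filter, with the mean of probe sets and with the 2 groups alone, 3 with quantile normalization (Apoe, Scarb1 and Sdc1, all higher) and 0 to 2 with an array left out. In knockdown minus wild type they numbered 5 with no filter and 3 to 13 with an array left out. Of 378 alternative values for called pathway genes 292 kept the call, 86 lost it and 0 changed sign. A filter at the 60th percentile leaves no value for the dim members. The cause of these changes was not tested unless given.

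Same-numbered arrays did not all deviate together. The correlations over 13344 genes were 0.20 for wild type with knockout-control, -0.15 for wild type with knockdown and -0.50 for knockout-control with knockdown. In the last pair of groups, arrays of unlike number thus tended to deviate in the same direction. With so few arrays in a group, these values cannot decide whether arrays of different groups were paired, under the same or another number. With the replicate block, pathway genes called numbered 8, 0 and 7 in the order knockout-control minus wild type, knockdown step and knockdown minus wild type, and the member probe set called in knockdown minus wild type was lost, leaving 0.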
